A study of Mus musculus with 2 samples.

Results

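The transcripts of 42 genes of mitosis, the spindle checkpoint and cytokinesis were measured in mouse heart by total RNA sequencing. The genes were taken by symbol, and all 42 were found, among 55536 annotated genes, in the gene tables and in both kinds of transcript table. They comprise 8 kinases, cyclins and phosphatases of mitotic entry, 2 transcription factors, 2 chromosome structure genes and 7 spindle and centrosome genes. The others are 7 centromere and kinetochore genes, 4 spindle checkpoint genes, 3 genes of anaphase onset, the 4 genes of the chromosomal passenger complex and 5 cytokinesis genes. The samples are 2 libraries of a single group, biological replicates 2 and 1, from hearts of female mice of the F1 hybrid strain B6CASTF1/J at 4 days of age. No allele, transgene or treatment is named for either. Both came from stranded, ribosome-reduced total RNA, 300 ng each, with ERCC spike-ins. The labels number the replicates separately but give both the same donor, so the spread between them may be technical. A permutation over 1 group of 2 libraries could not go below p = 0.5 (two-sided), so no test between samples was made.

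A cell enters mitosis when cyclin-dependent kinase 1, bound to cyclins A and B, escapes inhibition by Wee1 through the Cdc25 phosphatases. The spindle checkpoint then holds back the anaphase-promoting complex until every kinetochore is attached, after which separase cuts cohesin, the chromosomes part and the cell is cleaved by cytokinesis. In the mouse heart, cardiomyocytes in the first week after birth pass through a last round of the cell cycle in which many complete nuclear division without cytokinesis, while the other heart cells go on dividing. In RNA of whole tissue, fewer cells of a type and less RNA per cell cannot be told apart.

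The libraries held 32509660 expected counts in replicate 2 and 36175363 in replicate 1, and 13953 and 13750 genes reached 1 TPM (a level scaled for transcript length and for the library's total). The 10 cardiomyocyte markers summed to 37200 TPM in replicate 2 and 36700 TPM in replicate 1. The 11 lymphocyte and thymus markers summed to 3.49 TPM in replicate 2 and 1.69 TPM in replicate 1. Erythroid, skeletal muscle and epicardial markers were lower in replicate 2, and their values stand beside the comparison of the libraries. A gene's counts are given with exact 95% Clopper-Pearson intervals on their ratio where libraries are compared, and these cover counting error only.

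The promoters of genes that peak in mitosis are known for the CHR element (cell cycle genes homology region), through which the MuvB complex acts, and for CCAAT boxes, which bind NF-Y. RefSeq promoter windows on GRCm38.p6, each of 250 bases before and 50 after a transcript start, were matched by symbol to 34 of the 42 genes. Prc1 and Ect2 have a pair of windows each, which gives 36 windows. No window was matched for Ccna2, Wee1, Cdc25c, Foxm1, Tpx2, Spc24, Aurkb and Incenp. The letters searched on both strands were TTTGAA or TTCGAA for the CHR, CCAAT for the box, and TTTCCCGC or TTTGGCGC for an E2F-like element. A CHR can share end letters with a CCAAT box, and 1 of the 36 windows holds such an overlap. A CHR was present in 26 of 36 windows (72.2%), against 19.2% of all 32851 mouse windows of the same length. A CCAAT box was also present in 26 of 36 windows (72.2%), against 37.4% of all windows. Both stood together in 24 of 36 windows (66.7%), against 7.52% of all windows. At least 2 CCAAT boxes were present in 17 windows (47.2%), against 11.7% of all windows. The E2F-like letters were in 0 of 36 windows and in 1.56% of all windows. With so low a share over all windows, 0 of 36 is not read as an absence, and other forms of the element were not searched. These matches are letters in a window and were not tested as binding sites.

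The following 6 windows show the arrangement at a gene from each of 6 steps of mitosis, being the first listed gene of its role that holds both elements. They run 5′ to 3′ in the direction of transcription, with CHR and CCAAT letters on either strand in capitals (ATTGG is CCAAT and TTCAAA is TTTGAA read on the other strand).
Cdk1, chr10:69352863-69353162, minus strand: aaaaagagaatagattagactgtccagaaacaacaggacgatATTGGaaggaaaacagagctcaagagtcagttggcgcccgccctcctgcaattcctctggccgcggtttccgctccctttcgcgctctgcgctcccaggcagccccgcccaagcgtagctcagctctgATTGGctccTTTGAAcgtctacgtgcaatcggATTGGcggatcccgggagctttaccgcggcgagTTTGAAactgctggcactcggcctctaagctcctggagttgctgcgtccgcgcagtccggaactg
Top2a, chr11:99024140-99024439, minus strand: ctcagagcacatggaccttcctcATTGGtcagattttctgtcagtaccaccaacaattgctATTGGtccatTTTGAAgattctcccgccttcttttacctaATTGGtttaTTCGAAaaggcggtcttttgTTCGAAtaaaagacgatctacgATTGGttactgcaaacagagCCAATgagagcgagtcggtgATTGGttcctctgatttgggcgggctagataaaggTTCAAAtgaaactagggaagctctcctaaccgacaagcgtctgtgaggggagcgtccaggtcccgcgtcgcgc
Cenpa, chr5:30666636-30666935, plus strand: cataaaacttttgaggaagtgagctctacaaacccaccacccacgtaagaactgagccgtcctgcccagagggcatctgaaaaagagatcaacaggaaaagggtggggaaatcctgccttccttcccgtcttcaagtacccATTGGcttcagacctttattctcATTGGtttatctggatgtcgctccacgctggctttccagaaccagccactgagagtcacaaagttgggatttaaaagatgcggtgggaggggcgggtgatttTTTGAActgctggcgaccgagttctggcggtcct
Bub1, chr2:127831810-127832109, minus strand: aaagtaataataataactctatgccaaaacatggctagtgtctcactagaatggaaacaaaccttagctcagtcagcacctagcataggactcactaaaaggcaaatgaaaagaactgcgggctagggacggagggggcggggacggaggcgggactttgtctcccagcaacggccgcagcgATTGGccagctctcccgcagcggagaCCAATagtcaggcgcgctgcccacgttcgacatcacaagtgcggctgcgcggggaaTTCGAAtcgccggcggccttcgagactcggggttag
Cdc20, chr4:118437294-118437593, minus strand: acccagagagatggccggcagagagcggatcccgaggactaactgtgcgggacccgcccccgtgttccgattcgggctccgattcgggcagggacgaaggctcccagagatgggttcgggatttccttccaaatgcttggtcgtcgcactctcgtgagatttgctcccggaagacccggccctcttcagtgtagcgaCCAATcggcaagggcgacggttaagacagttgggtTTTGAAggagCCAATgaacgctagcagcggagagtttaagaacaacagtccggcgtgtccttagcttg
Prc1, chr7:80294201-80294500, plus strand: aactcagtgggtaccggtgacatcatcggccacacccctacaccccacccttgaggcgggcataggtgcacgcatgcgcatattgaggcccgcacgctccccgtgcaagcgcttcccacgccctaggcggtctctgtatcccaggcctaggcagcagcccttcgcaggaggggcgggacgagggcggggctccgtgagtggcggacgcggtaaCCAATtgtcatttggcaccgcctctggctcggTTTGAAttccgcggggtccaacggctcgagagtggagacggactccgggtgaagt

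Cdk1 has 3 CCAAT boxes and 2 CHR elements, which begin 71 and 15 bases before the start. Top2a carries the most of both among the matched genes, with 6 CCAAT boxes and 4 CHR elements. Bub1, Cdc20 and Cenpa have 1 CHR and 2 CCAAT boxes each, and Prc1 has 1 of each. Neither element was found in the windows of Mybl2, Plk4, Nusap1, Nuf2, Mad2l1, Pttg1, Birc5 and Cit. The windows of Cit and Pttg1 lie wholly inside the annotated gene, and those of Mybl2, Plk4 and Mad2l1 end before it. For 26 of the 36 windows, bases just after the start were found in an annotated transcript of the gene. Those of Mybl2, Plk4, Mad2l1 and Birc5 were not among them, so an element at another start would be missed.

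All 42 genes were expressed in both libraries, at 5 TPM or more in each, and 39 of them at 10 TPM or more in each. Together they summed to 1259 TPM in replicate 2 and 1110 TPM in replicate 1, a mean of 1185 ± 105 TPM (SD, n = 2 here and for every mean below). That is 0.126% of all TPM in replicate 2 and 0.111% in replicate 1. Their median mean level was 21.4 TPM, against 12.5 TPM for the 11948 protein-coding genes at 1 TPM or more in both libraries, and 34 of the 42 lay above that value. The levels ran from 7.20 ± 0.346 TPM for Cdc25c to 91.3 ± 9.64 TPM for Top2a, a 12.7-fold span. The top 6 genes, Top2a, Prc1, Cenpa, Cdk1, Mki67 and Ccna2, held 33.2% of the summed TPM. In a second deposited quantification Racgap1 (mean 75.7 TPM) took the place of Prc1 (62.0 TPM) among the top 6. On protein-coding transcripts alone Racgap1 ranked 5 and Prc1 ranked 7. Down the whole order, only 6 of 41 neighbouring pairs had ranges over the libraries that did not overlap. The span of 21 of the 42 genes overlaps another annotated gene, 9 of them on the same strand. The opposite-strand partners above 1 TPM are Elovl1 at Cdc20, Exosc9 at Ccna2, Oip5 at Nusap1, 9930104L06Rik at Cdca8, Rccd1 at Prc1 and Spef1 at Cdc25b. Those on the same strand are Gm23451 at Top2a and Gm23115 at Ndc80. Whether the authors' counting used the strand is not given in the sources used here, so the values of all 21 genes are uncertain to that extent.

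**Figure D1:**
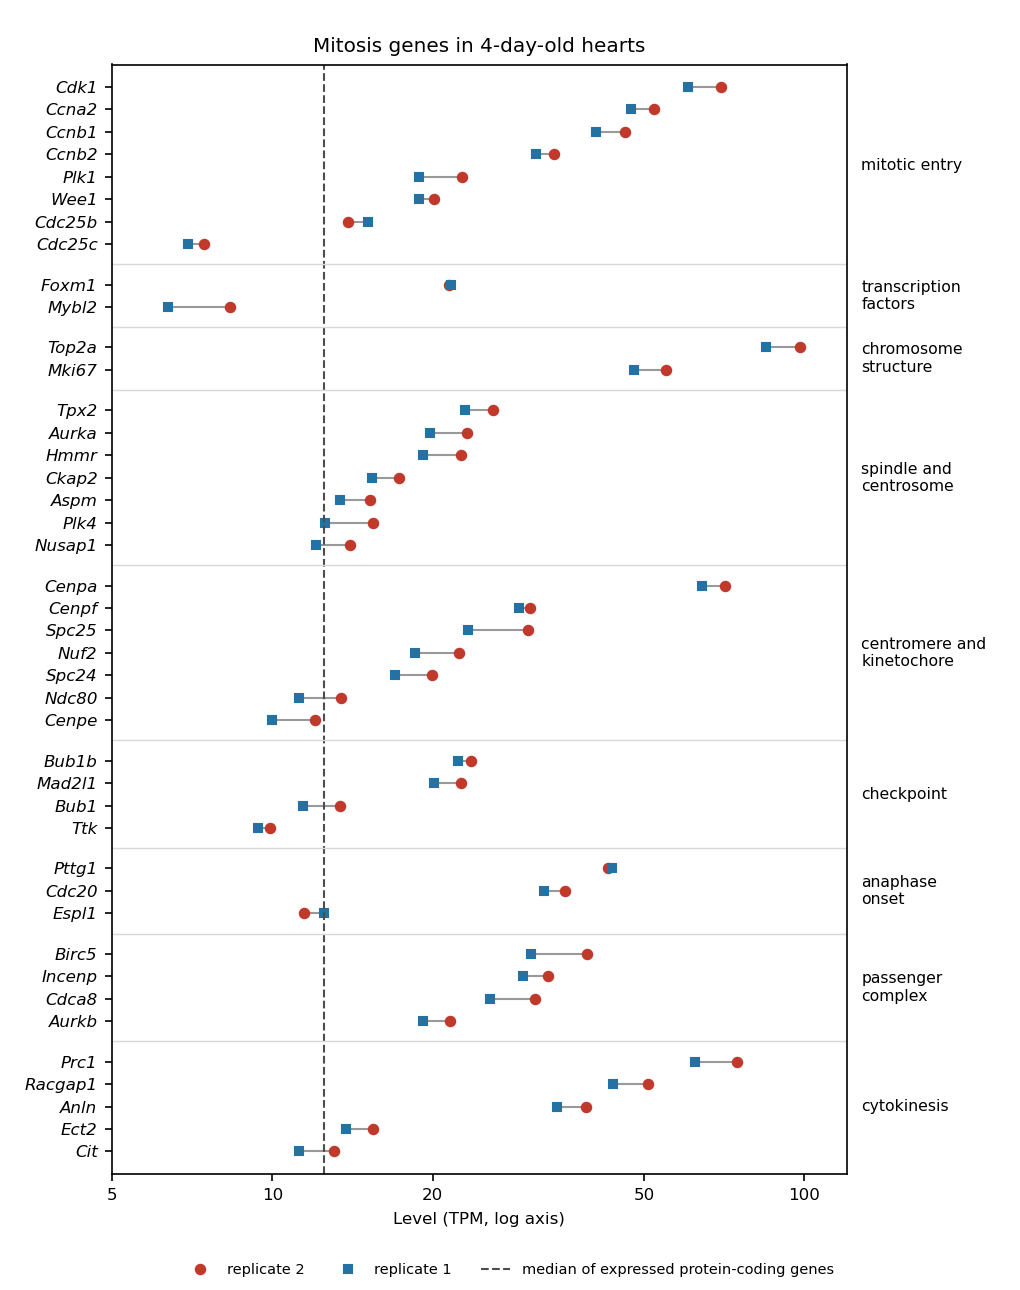
Level of each of the 42 genes in replicate 2 (red circles) and replicate 1 (blue squares), in TPM on a log axis, ordered by mean within each role. The dashed line is the median of expressed protein-coding genes, 12.5 TPM, and most genes lie right of it, with Top2a farthest right at 98.2 TPM in replicate 2 and 84.5 TPM in replicate 1.

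Among the genes of mitotic entry, Cdk1, the kinase at the centre of the switch (mm10 chromosome 10, 69335146 to 69352938, minus strand), was highest at 69.6 TPM in replicate 2 and 60.3 TPM in replicate 1. Ccna2, cyclin A2, followed with 52.2 TPM in replicate 2 and 47.1 TPM in replicate 1. Ccnb1, cyclin B1, had 46.0 and 40.6 TPM in replicates 2 and 1. These 3 levels did not overlap over the libraries, so their order held in both. Ccnb2, cyclin B2, had 33.8 TPM in replicate 2 and 31.3 TPM in replicate 1. Plk1, the polo-like kinase that promotes entry and spindle assembly, had 22.7 TPM in replicate 2 and 18.9 TPM in replicate 1. Wee1, which phosphorylates and restrains Cdk1, had 20.2 and 18.8 TPM in replicates 2 and 1 and overlapped Plk1. The opposing phosphatases were lower. Cdc25b had 13.9 TPM in replicate 2 and 15.1 TPM in replicate 1, and Cdc25c had 7.44 TPM in replicate 2 and 6.95 TPM in replicate 1, the lowest mean of the 42. The activating transcription factors differed from each other. Foxm1, a forkhead activator of late cell cycle genes, had 21.5 TPM in replicate 2 and 21.7 TPM in replicate 1. Mybl2, the B-Myb partner of MuvB, had 8.34 TPM in replicate 2 and 6.36 TPM in replicate 1.

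Of the chromosome structure genes, Top2a, which untangles sister DNA (mm10 chromosome 11, 98992943 to 99024189, minus strand), rested on 8265 counts in replicate 2 and 8157 in replicate 1. Mki67, the Ki-67 protein that coats mitotic chromosomes and serves as a proliferation marker, had 55.0 TPM in replicate 2 and 47.8 TPM in replicate 1. With 13377 and 13246 counts in replicates 2 and 1 it was the most deeply counted of the 42. The spindle genes sat lower and closer together. Tpx2, which activates Aurora A on the spindle, had 26.0 TPM in replicate 2 and 23.0 TPM in replicate 1. Aurka, the Aurora A kinase itself, had 23.2 and 19.8 TPM in replicates 2 and 1. Hmmr, a spindle assembly factor, had 22.6 TPM in replicate 2 and 19.2 TPM in replicate 1, and its range overlapped that of Aurka, as did the range of Tpx2, while Ckap2 lay apart below it. Ckap2, a microtubule-binding protein, averaged 16.4 ± 1.34 TPM, Aspm of the spindle poles 14.3 ± 1.33 TPM, and the microtubule bundler Nusap1 13.0 ± 1.34 TPM. Plk4, which starts centriole duplication, had 15.5 TPM in replicate 2 and 12.6 TPM in replicate 1.

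Cenpa, the histone H3 variant that marks the centromere (mm10 chromosome 5, 30666777 to 30674830, plus strand), was highest of the kinetochore group with 70.8 TPM in replicate 2 and 64.2 TPM in replicate 1. Cenpf, a large coiled-coil protein of the outer kinetochore, had 30.5 TPM in replicate 2 and 29.1 TPM in replicate 1. Cenpe, a kinesin that carries chromosomes to the metaphase plate, had 12.0 TPM in replicate 2, with an SD of 1.44 TPM over both libraries, on 1839 counts in replicate 2 and 1908 in replicate 1. The 4 subunits of the Ndc80 complex, which holds microtubules at the kinetochore, were not level with each other. Spc25 had 30.2 TPM in replicate 2 and 23.3 TPM in replicate 1. Nuf2 had 22.4 and 18.5 TPM in replicates 2 and 1, Spc24 had 19.9 and 17.0 TPM, and Ndc80 had 13.5 and 11.2 TPM in the same libraries. Spc25 and Ndc80 were apart from their nearest partner, while the ranges of Nuf2 and Spc24 overlapped. In the checkpoint itself, Bub1b, the BubR1 subunit of the mitotic checkpoint complex, had 23.6 TPM in replicate 2 and 22.3 TPM in replicate 1. Mad2l1, the Mad2 protein that binds Cdc20, had 22.6 and 20.1 TPM in replicates 2 and 1, and overlapped Bub1b. The kinases stood below them, with Bub1 at 13.4 TPM in replicate 2 and 11.4 TPM in replicate 1 and Ttk, the Mps1 kinase, at 9.88 and 9.38 TPM.

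At anaphase onset, Pttg1, the securin that inhibits separase, had 42.7 TPM in replicate 2 and 43.4 TPM in replicate 1. Cdc20, the activator of the anaphase-promoting complex that the checkpoint holds back, had 35.5 TPM in replicate 2 and 32.4 TPM in replicate 1. Espl1, separase, had 11.5 TPM in replicate 2 and 12.5 TPM in replicate 1, below both of the others without overlap. In the chromosomal passenger complex, which corrects attachments and later directs cleavage, Birc5 (survivin) had 39.1 TPM in replicate 2 and 30.6 TPM in replicate 1. Incenp, the scaffold, had 33.0 and 29.6 TPM in replicates 2 and 1, and Cdca8 (borealin) had 31.2 and 25.7 TPM. The kinase Aurkb was lowest with 21.6 TPM in replicate 2 and 19.2 TPM in replicate 1, apart from Cdca8. Among the cytokinesis genes, Prc1, which bundles the midzone microtubules, had 74.8 TPM in replicate 2 and 62.4 TPM in replicate 1. Racgap1, a subunit of centralspindlin, had 50.9 and 43.7 TPM in replicates 2 and 1, and Anln, the ring scaffold anillin, had 38.9 and 34.3 TPM. Ect2, the exchange factor that activates RhoA at the cleavage site, had 15.5 TPM in replicate 2 and 13.8 TPM in replicate 1. Cit, the citron kinase of late cytokinesis, had 13.0 TPM in replicate 2 and 11.2 TPM in replicate 1. All 4 steps of this order, from Prc1 down to Cit, were without overlap over the libraries in these values. The first step turned in the second quantification, where Racgap1 had 80.1 and 71.3 TPM in replicates 2 and 1 and Prc1 68.0 and 56.0 TPM. On protein-coding transcripts alone the means were near level, at 42.7 TPM for Racgap1 and 41.8 TPM for Prc1.

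Functional partners were compared by the log2 ratio of their TPM within each library, for 14 pairs. A pair counts as apart where both libraries have the same sign and the smaller ratio exceeds the difference between the libraries. By that rule 13 of 14 pairs were apart. How many pairs of all expressed genes would pass was not computed, so this count is not read as a trait of these partners. Securin stood above separase the most, with a Pttg1 over Espl1 log2 ratio of 1.90 in replicate 2 and 1.80 in replicate 1, a mean 3.60-fold. Foxm1 over Mybl2 was 1.36 in replicate 2 and 1.77 in replicate 1. Cenpf over Cenpe was 1.34 and 1.54 in replicates 2 and 1, and Cdc25b over Cdc25c was 0.90 and 1.12. Ect2 over Racgap1, the exchange factor and the protein that recruits it, was -1.72 in replicate 2 and -1.67 in replicate 1, so that Ect2 was a mean 3.23-fold lower. Ndc80 lay 1.66-fold below Nuf2, at -0.74 and -0.72 in replicates 2 and 1, and Spc24 lay 1.44-fold below Spc25, at -0.60 and -0.45. Bub1b over Bub1 was 0.82 in replicate 2 and 0.97 in replicate 1.

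Smaller ratios separated Plk1 over Plk4 (mean log2 0.57 ± 0.03), Wee1 over Cdc25b (0.43 ± 0.16), Ccnb1 over Ccnb2 (0.41 ± 0.05) and Ccna2 over Ccnb1 (0.20 ± 0.02). Cdc20 over Fzr1, the later activator of the anaphase-promoting complex (26.8 TPM in replicate 2 and 25.2 TPM in replicate 1), was 0.38 ± 0.03. The Aurora kinases were not apart, with Aurkb over Aurka at -0.11 in replicate 2 and -0.04 in replicate 1. In the second quantification all 14 pairs kept their sign and side of the rule, apart or not. Counting protein-coding transcripts alone, an alternative chosen after seeing the data, Ccnb1 over Ccnb2 turned to -0.08. On counts with no length scaling Pttg1 over Espl1 turned to -0.79 and Cdc20 over Fzr1 to -0.09, and Aurkb over Aurka became apart at -0.29 (-0.51 on protein-coding transcripts alone).

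**Figure D2:**
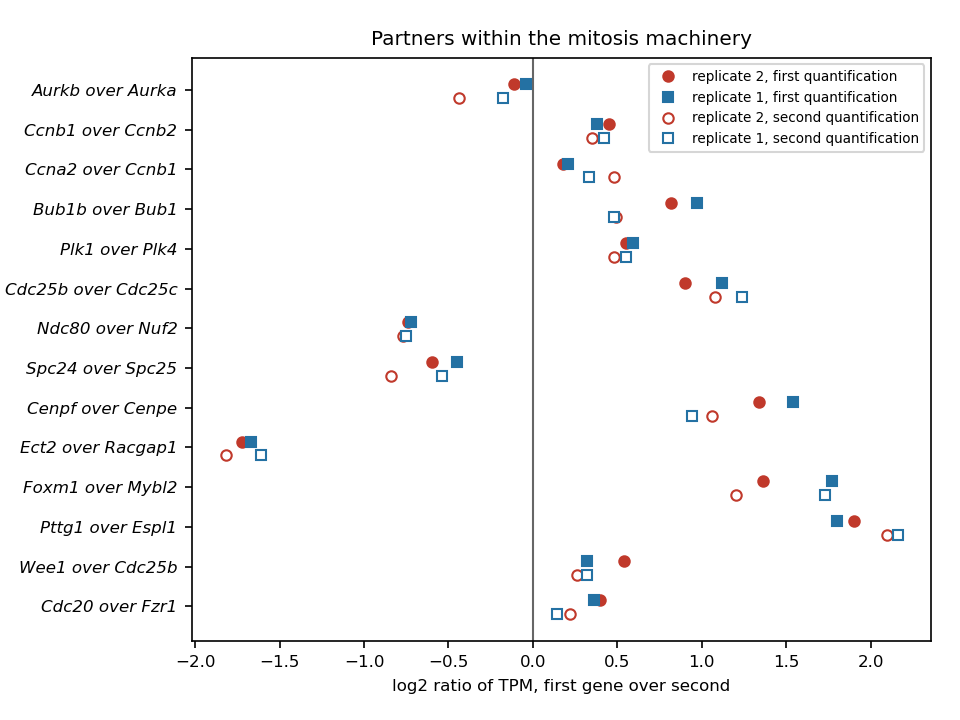
The log2 ratio of TPM, first gene over second, for 14 pairs of partners in replicate 2 (red circles) and replicate 1 (blue squares), filled for the first and open for the second quantification. Ratios right of 0 mean that the first gene is higher; Pttg1 over Espl1 is farthest right and Ect2 over Racgap1 farthest left in all 4 measurements.

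Behind the gene levels stand 274 annotated transcripts, and which of them carried a gene's level differed between the genes. One transcript held at least 50% of the gene's TPM in both libraries for 30 of the 42 genes in the first transcript table and for 29 in the second. The leading transcript was the same in both tables for 33 genes and differed for 9, which are Aurka, Cenpa, Spc25, Mad2l1, Pttg1, Incenp, Prc1, Ect2 and Racgap1. For 8 genes the leading transcript held at least 90% of the level, as in Mki67, where Mki67-201 (10061 nt) held 99.3% in replicate 2 and 99.1% in replicate 1. The same counts were not made over all expressed genes, so they are not read as particular to the 42. Transcripts of a gene overlap in sequence, so a share rests on how each program divided shared reads.

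Cenpa was the gene whose level came least from protein-coding transcripts. These held 17.9% of its TPM in the first table and 13.8% in the second, and transcripts annotated as targets of nonsense-mediated decay held 62.0% and 69.6%. Cenpa-202, of the decay class with a reading frame of 42 residues, led with 31.9 TPM in replicate 2 and 29.8 TPM in replicate 1. The full coding transcript Cenpa-205, with 134 residues, had 9.71 and 9.75 TPM in replicates 2 and 1. On protein-coding transcripts alone Cenpa stood at 14.3 TPM in replicate 2 and 9.92 TPM in replicate 1, which moved it from rank 3 to rank 31 of the 42. In the second table Cenpa-201, also of the decay class, led instead, so the class but not the transcript was shared by the tables.

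Prc1 split between tables. Its leading transcript in the first table was Prc1-214, a 595 nt retained-intron model, with 26.4 TPM in replicate 2 and 21.7 TPM in replicate 1. The coding Prc1-210 (620 residues) had 25.1 and 21.7 TPM in replicates 2 and 1. In the second table Prc1-214 held 6.53% of the level and coding transcripts held 87.5%, against 60.9% in the first. Mad2l1 went the other way, with the retained-intron model Mad2l1-203 at 27.7% in the first table and 60.0% in the second. Ccnb1 had 28.7% of its level in retained-intron models in the first table and 46.7% in the second. For Cit, protein-coding transcripts held a minority in both tables, 43.0% and 46.2%, and for Ect2 they held 58.6% and 52.7%. Top2a had 61.2% in its single coding transcript Top2a-201 in the first table and 66.5% in the second, with the rest in noncoding models such as Top2a-203 (796 nt, 14.5 TPM in replicate 2 and 11.1 TPM in replicate 1).

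Other splits concerned transcripts that encode proteins of equal length. The securin transcripts Pttg1-203 (700 nt) and Pttg1-205 (696 nt) both encode 199 residues. Pttg1-203 had 34.1 TPM in replicate 2 and 12.9 TPM in replicate 1, while Pttg1-205 was listed at 0 in replicate 2 and had 17.8 TPM in replicate 1. The second table gave Pttg1-206, also of 199 residues, 66.2% of the level. Spc25-201 and Spc25-202 (226 residues each) held 70.5% and 18.3% in the first table and 22.1% and 66.0% in the second. Racgap1-201 and Racgap1-213 (628 residues each) held 61.3% and 15.4% in the first table and 7.72% and 48.3% in the second. The level of the whole gene, second over first quantification, was 1.33-fold for Pttg1, 1.25-fold for Spc25 and 1.6-fold for Racgap1. The median over all expressed genes was 1.3-fold.

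Over all 42 genes, protein-coding transcripts held 80.5% of the TPM in replicate 2 and 79.8% in replicate 1, against 86.2% and 86.8% for all expressed protein-coding genes. Retained-intron models held 11.2% and 11.1% for the 42 genes in replicates 2 and 1, against 6.57% and 6.16% for all. The second table had smaller gaps, with 81.0% and 80.5% in protein-coding transcripts of the 42 genes in replicates 2 and 1, against 82.9% and 83.9% for all. Its retained-intron models held 9.73% and 8.97% for the 42 genes, against 7.66% and 7.06% for all. Counted by gene, 11 of the 42 (26.2%) had at least 25% of their level outside protein-coding transcripts, close to the 28.2% of all expressed protein-coding genes. The second quantification gave higher TPM for 39 of the 42 genes, with a median of 1.23-fold beside 1.30-fold for all expressed genes. Cdca8 had the largest such log2 ratio, 1.05, and Cenpf, Bub1b and Prc1 were lower there.

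**Figure D3:**
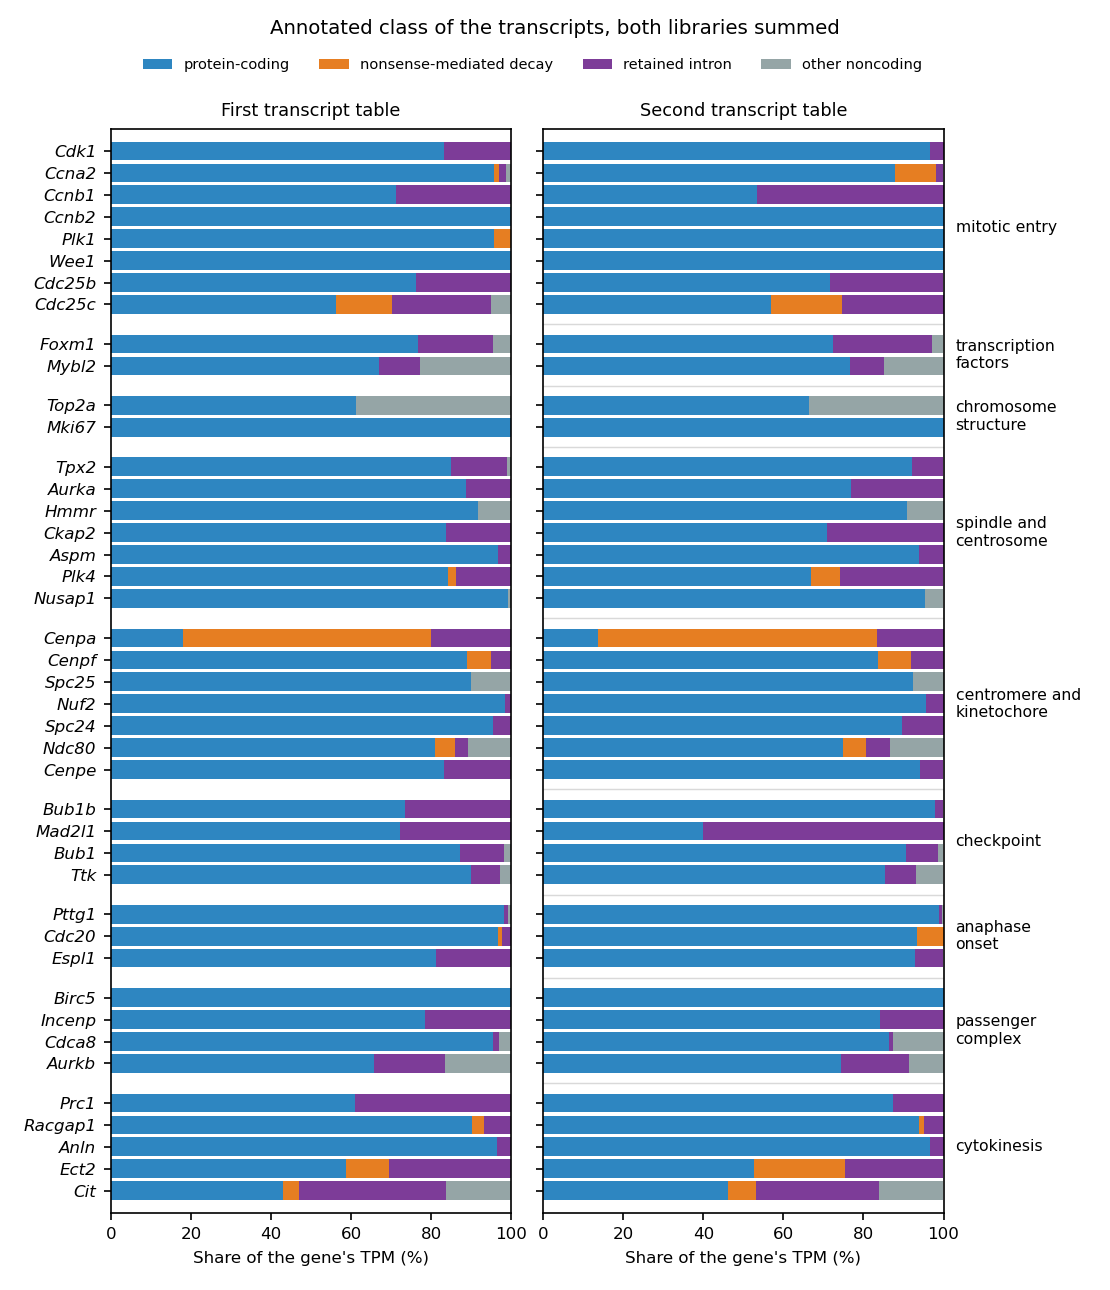
Share of each gene's TPM, libraries summed, that fell in protein-coding, nonsense-mediated decay, retained-intron and other noncoding transcripts, in the first (left) and second (right) transcript table. Cenpa stands out with 17.9% and 13.8% coding, and Prc1 and Mad2l1 show unlike shares of retained-intron models in the 2 tables.

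Between the libraries the 42 genes differed little, and most leaned the same way. Counts were scaled by TMM, and ratios are replicate 2 over replicate 1 on the log2 scale. This compares 2 libraries of a group, has no replicate check and carries no p-value. The median ratio of the 42 genes was 0.11 (1.08-fold), with the middle 50% of them between 0.05 and 0.16, and the median of all 13598 genes tested was -0.003. A ratio above 0 was found for 40 of the 42 genes, against 48.9% of all genes tested. The interval lay above 0 for 22 of the 42, against 10.4% of all genes tested, and below 0 for 1 of the 42, against 13.3%. None of the 42 reached a 2-fold difference, which 0.86% of all genes tested did. Of the 42, 39 lay within 1.2-fold, as did 86.7% of all genes tested.

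The largest ratios were among the kinetochore and passenger genes, but not all genes of these groups shared them. Cenpf (0.02), Cenpa (0.04), Cenpe (0.06) and Aurkb (0.07) had intervals that held 0. Spc24 had 467 counts in replicate 2 and 396 in replicate 1, a ratio of 0.35 (95% interval 0.15 to 0.54). Birc5 had 913 and 809 counts in replicates 2 and 1, a ratio of 0.28 (0.15 to 0.42). Spc25 had a ratio of 0.24 (0.10 to 0.38) and Ndc80 of 0.22 (0.07 to 0.38). Incenp reached 0.21 (0.09 to 0.32) and Prc1, Nuf2, Cdca8 and Cit 0.19 each. The deeply counted genes had narrow intervals above 0, with Mki67 at 0.12 (0.09 to 0.16) and Top2a at 0.13 (0.08 to 0.17). By role, the median was 0.20 for the passenger complex, 0.19 for the kinetochore group, 0.13 for spindle genes, 0.12 for chromosome structure and for the checkpoint, 0.11 for cytokinesis, 0.06 for mitotic entry and for the transcription factors, and 0.04 for anaphase onset. Cyclins B1 and B2 and Wee1 were near level, at 0.04 (-0.06 to 0.13), 0.03 (-0.09 to 0.14) and 0.01 (-0.08 to 0.11).

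The exceptions were Cdc25b and Pttg1. Cdc25b had 784 counts in replicate 2 and 1021 in replicate 1, a ratio of -0.27 (-0.41 to -0.14), and its interval was below 0 under every scaling tried and in the counts of the second quantification (-0.24, interval -0.37 to -0.11). The deposited TPM of the second quantification ran the other way for Cdc25b, with 20.7 TPM in replicate 2 and 18.8 TPM in replicate 1, so its direction depended on the unit there. Pttg1 had 654 and 741 counts in replicates 2 and 1, a ratio of -0.07 (-0.22 to 0.08), which was 0.06 with spike-in scaling. By TPM, which shifted the median of all tested genes to 0.08, the 42 genes had a median of 0.19, and 38 were higher in replicate 2, beside 70.9% of all tested genes. The others by TPM were Cdc25b, Pttg1, Foxm1 and Espl1. Spike-in scaling shifted the median of all genes to 0.13 and that of the 42 genes to 0.24. Relative to the median of all genes, 40 of the 42 were above it under every scaling tried.

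**Figure D4:**
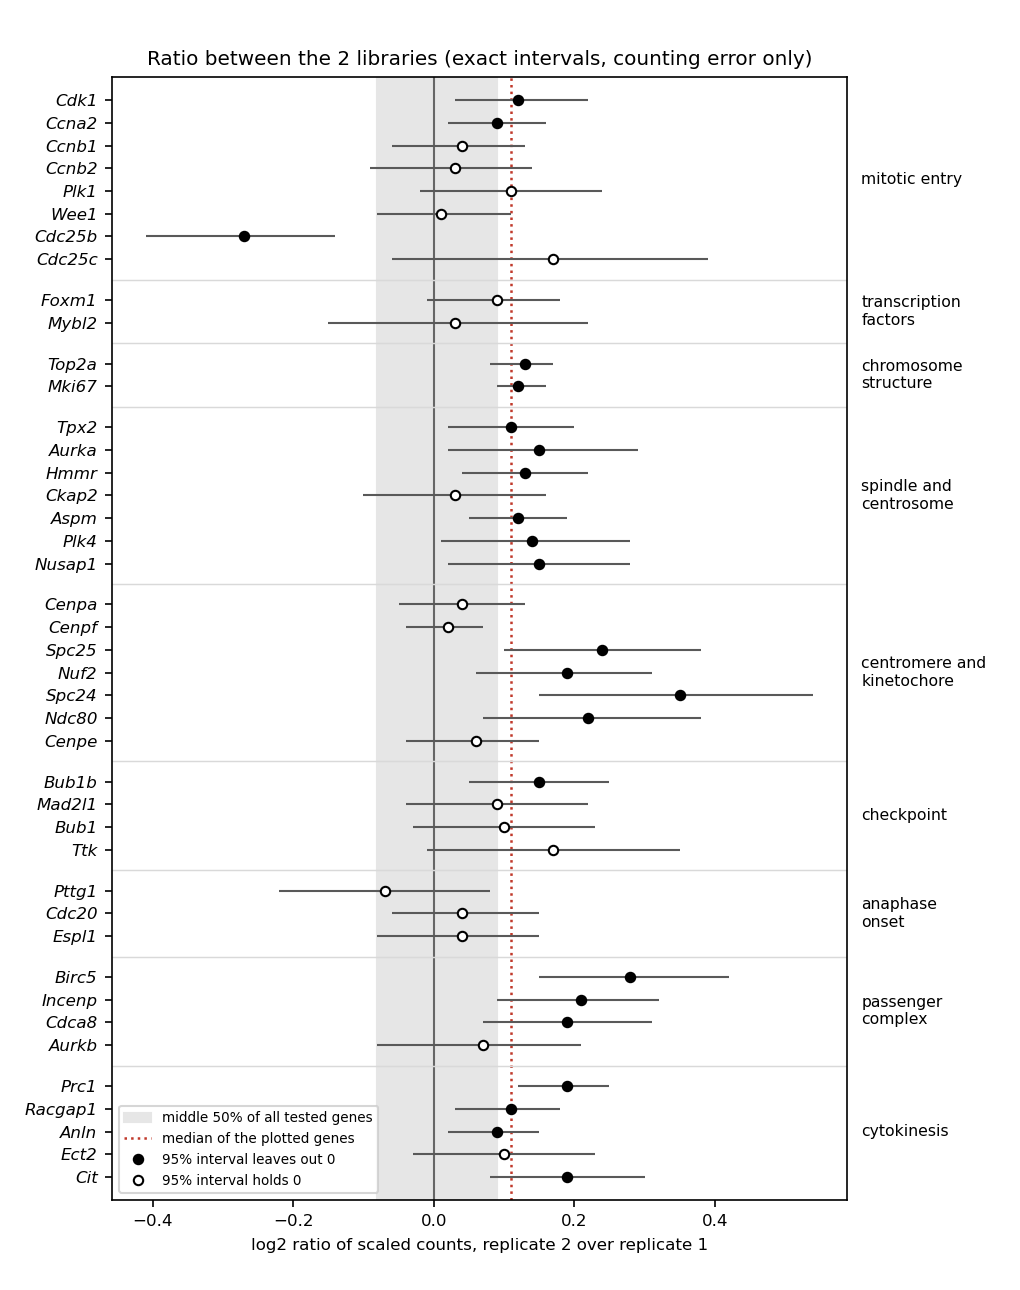
The log2 ratio of TMM-scaled counts, replicate 2 over replicate 1, for each of the 42 genes with its exact 95% interval (lines, counting error only). The grey band is the middle 50% of all tested genes and the dotted line the median of the 42, at 0.11; Spc24 is highest at 0.35 and Cdc25b lowest at -0.27.

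Several cell type markers moved between the libraries as well. All 6 tested erythroid markers were lower in replicate 2 (median -6.32), with Hbb-bs at 68.9 TPM in replicate 2 and 5746 TPM in replicate 1, and the list summed to 221 TPM in replicate 2 and 17300 TPM in replicate 1. The 7 tested skeletal muscle markers were all lower, with a median of -2.76 and sums of 132 and 309 TPM in replicates 2 and 1, of which Acta1 gave 125 and 263 TPM. All 8 epicardial and mesothelial markers were lower, with a median of -0.64 and sums of 46.9 and 71.7 TPM. In the direction of the mitosis genes, 9 of 9 fibroblast markers were higher in replicate 2 (median 0.16, sums of 2260 and 1880 TPM), with Col3a1 at 0.18. The 8 tested macrophage markers were also higher (median 0.28, sums of 62.9 and 45.2 TPM). Mural markers had a median of 0.12, while their sum was lower in replicate 2, at 707 TPM against 767 TPM in replicate 1, with Acta2 at -0.34. Endothelial markers had a median of -0.05, while their sum was higher in replicate 2, at 956 TPM against 905 TPM in replicate 1. Cardiomyocyte markers had a median of -0.06, also with a higher sum in replicate 2. The medians are of scaled counts and the sums are of TPM, by which the median ratio of all tested genes was 0.08. A median and a sum of unlike direction are thus not in the same unit. None of the markers of these lists was at 0 in both libraries. The part of these cell types in the ratios of the mitosis genes was not tested.

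Other genes of cell division were read in the same way, in 8 lists, beside 48.9% of all genes tested that were higher in replicate 2 and 10.4% that were higher beyond counting error. The 12 mitotic kinesins, the motors of the spindle, were all higher in replicate 2, 8 of them beyond counting error, with a median of 0.16. Kif23, the motor of centralspindlin, which is also in the list of other cytokinesis genes, was the most abundant at 39.6 TPM in replicate 2 and 33.2 TPM in replicate 1. Of the 8 condensin subunits, which compact chromosomes, 7 were higher and 6 beyond counting error (median 0.12), with Ncapd2 at 58.9 TPM in replicate 2 and 49.0 TPM in replicate 1. Of 28 other kinetochore and checkpoint genes 23 were higher, 8 beyond counting error (median 0.11), led in level by Zwint with 43.7 and 41.1 TPM in replicates 2 and 1. The 23 S phase genes of DNA replication included 22 higher and 13 beyond counting error (median 0.16). Among them Rrm2, a subunit of ribonucleotide reductase, had 96.4 TPM in replicate 2 and 77.3 TPM in replicate 1, and Pcna, the sliding clamp, had 94.6 and 80.7 TPM.

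The other lists had medians between 0.02 and 0.05, beside the same 48.9% of all genes tested that were higher and 10.4% that were higher beyond counting error. Cohesin and its regulators had 8 of 13 higher and 3 beyond counting error (median 0.05), with Rad21 at 75.1 TPM in replicate 2 and 68.9 TPM in replicate 1. The anaphase-promoting complex with its E2 enzymes had 10 of 16 higher and 2 beyond (median 0.02), with Ube2s at 139 and 124 TPM in replicates 2 and 1. The DREAM and MuvB subunits had 7 of 10 higher and 1 beyond (median 0.05). Other cytokinesis genes had 7 of 12 tested higher, with 2 beyond counting error in each direction (median 0.02), and Rhoa, the GTPase of the contractile ring, had a ratio of -0.09 (-0.14 to -0.05). Aurkc, the germline Aurora kinase, was at 0 counts in both libraries, which allows up to 3 counts, or 0.0923 CPM (the count scaled to the library total) in replicate 2 and 0.0829 in replicate 1. No gene of these 8 lists reached a 2-fold difference. Whether the medians of the lists differ from each other was not tested.

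**Figure D5:**
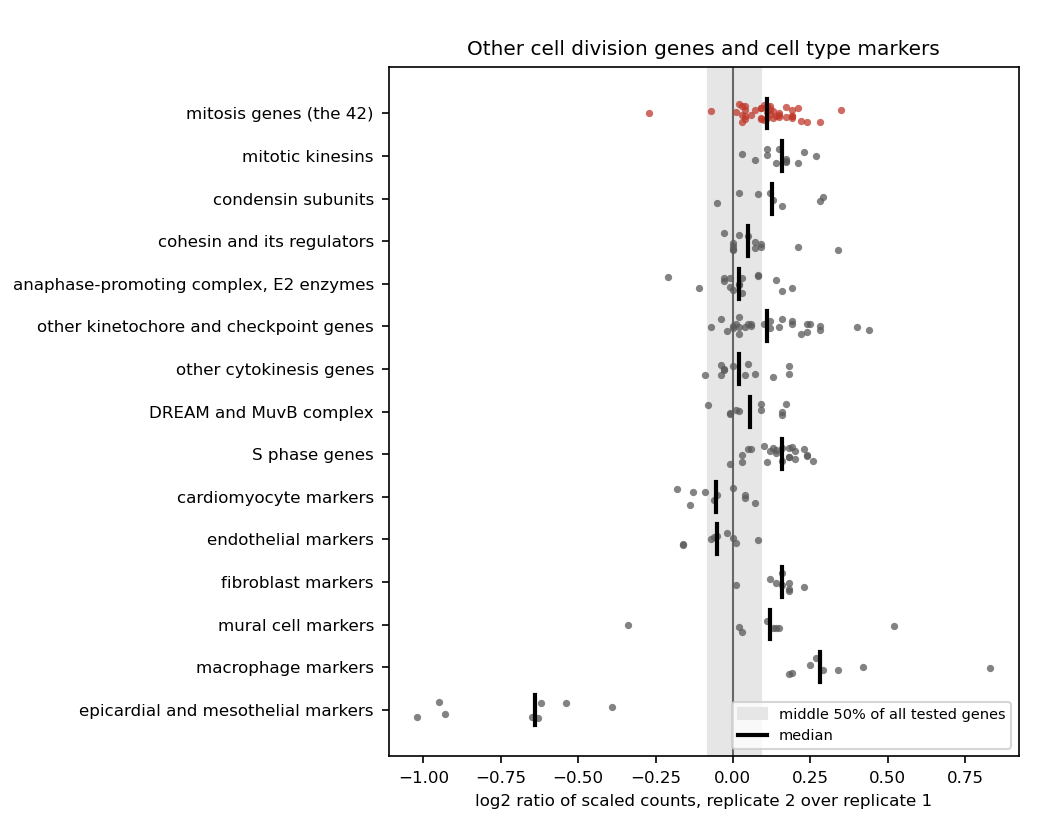
The log2 ratio of scaled counts, replicate 2 over replicate 1, for each tested gene of the 42 (red) and of 8 cell division and 6 marker lists (grey), with list medians as black bars. The grey band is the middle 50% of all tested genes; kinesins, S phase, fibroblast and macrophage genes lie mostly right of it, and epicardial genes left. Erythroid and skeletal muscle markers lie far left of the range drawn, with medians of -6.32 and -2.76, and no lymphocyte marker was tested.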

How the data were processed

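Total RNA of 2 libraries of 1 group was analysed from deposited tables (mm10 genome, annotation M21, per the file headers). The authors' gene tables hold expected counts (estimated, not whole) and TPM in an RSEM layout, with posterior means and posterior SDs, a score of assignment error used only to bound it. A second deposited transcript table, in a kallisto layout, gives estimated counts and TPM, here summed per gene. Which program made each is not given in the sources used here. All 42 members, the gene lists and the pairs were chosen with earlier results of these data known. The text names all members and pair partners. Of the other lists it names some, not all, of the 3 genes of highest TPM and of the genes called. It also names Aurkc, which was at 0 counts. A further marker list is not reported here.

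Counts were rounded, scaled by TMM (edgeR 4.0.16, R 4.3.3), given a prior count of 0.5 and tested where mean TPM was at least 1 and the summed count at least 20. A gene was called at 2-fold or more with an exact 95% interval excluding equality. The rule was tested on data simulated with counting error only, so that test cannot show how the rule behaves with other variation between libraries. Depth was 32509660 expected counts in replicate 2 and 36175363 in replicate 1. The largest posterior SD among the members was 1.23% of the count. Counts are of reads, without molecular identifiers, so intervals cover counting error only. Alternatives covered the second quantification, posterior means, length-free counts, DESeq2 1.42.0, total-count and spike-in scaling, filters, each library alone and, chosen after seeing the data, protein-coding transcripts only. Promoters came from RefSeq (GRCm38.p6), and protein motifs were not analysed here. Python 3.11.15, pandas 2.3.3, scipy 1.17.1 and matplotlib 3.10.9 were used.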

Additional observations from a re-analysis of the deposited data

How the results depend on the processing

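The count of expressed genes among the 42, the absence of a 2-fold difference, the 40 genes higher in replicate 2 and the 13 pairs apart kept within the limit of 1.5 times under every alternative run. The summed level moved with the quantification, from 1185 TPM to 1482 TPM in the second one and to 949.4 TPM on protein-coding transcripts only, and it was 1259 and 1110 TPM with replicate 1 or replicate 2 left out. By gene, the level moved by at least its SD over the libraries for 38 of the 42 in the second quantification. It did so for 25 on protein-coding transcripts only and for 2 with posterior means. These counts were not made over all expressed genes, so they are not read as particular to the 42. The second quantification was higher by a median of 1.3-fold over all expressed genes and 1.23-fold over the 42. Spike-in scaling moved the median ratio to 0.24, beside 0.13 for all genes, and put 39 of the 42 genes above 0 beyond counting error instead of 22, as it did 44.2% of all tested genes instead of 10.4%. With it 53.1% of all called genes were higher in replicate 2, against 37.6% with TMM. The genes called among all tested numbered 117, against 357 with no TPM limit, 36 at a mean of at least 5 TPM and 311 at 1.5-fold. The pair ratios that turned were Ccnb1 over Ccnb2 (-0.08, protein-coding transcripts only), Pttg1 over Espl1 (-0.79) and Cdc20 over Fzr1 (-0.09, both without length scaling, which weighs long transcripts more). Why these ratios turned was not tested. No paired analysis was possible because there is 1 group. At 2 libraries the spread of any gene is known only roughly, and Cdc25c, with 329 counts in replicate 2 and 316 in replicate 1, had the fewest counts.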
